A study of Mus musculus with 4 samples.

Results

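The genes described here are 10 members of the ATF4 and CHOP stress response: Atf4, Ddit3 (which encodes CHOP), Atf3, Trib3, Sesn2, Chac1, Asns, Phgdh, Psat1 and Shmt2. They were listed by name as amino acid and unfolded protein stress targets, at a time when earlier results of these data were known. All probes annotated to them were taken, 18 of the 46632 probes in the table, and 10 of 17711 named genes. All 18 passed the filter on dim probes. The samples were tumours of the B16-F10-luc-G5 line, mouse melanoma cells of the B16 family that carry luciferase. The cells were placed under the skin of the abdomen, and the tumours were removed on day 10 from 2 wild-type mice (replicates 2 and 3) and from 2 VAP-1 -/- mice (replicates 1 and 2). VAP-1 is an amine oxidase of the cell surface that is encoded by Aoc3. Both groups received the same line, and only the host differed in genotype. The labels give no strain, sex, age or form of the knockout allele. RNA was taken from whole tumours (100 ng amplified, 14 h of in vitro transcription), so fewer cells of a type and less RNA per cell cannot be told apart.

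ATF4 is a transcription factor of the integrated stress response. Kinases that sense lack of amino acids, unfolded protein in the endoplasmic reticulum, viral RNA or lack of haem phosphorylate the translation factor eIF2. General translation then slows, while the Atf4 messenger is translated more. Much of ATF4's control is therefore on its protein, which an array does not measure. ATF4 binds DNA with C/EBP partners at a composite element and raises genes of amino acid uptake and synthesis, together with Ddit3, Atf3, Trib3 and Chac1.

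The promoter windows of the members were searched for the core of that element, because it is the sequence through which ATF4 is known to act on several of them. The core was spelled TGATGNAA and searched on both strands in RefSeq windows of mouse GRCm38.p6, from 250 bases before to 50 bases after each annotated start. The 10 genes have 11 such windows. The core was found in 4 of these 11 (those of Atf3, Chac1, Trib3 and Asns), and in 3.97% of all 32851 windows. The ER stress element, spelled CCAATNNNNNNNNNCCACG, was found in 0 of the 11 and in 0.119% of all windows. The 4 stretches that hold the core are printed below 5′ to 3′ on the gene's strand, with the core in capitals. For Asns, Atf3 and Chac1 the stretch is the 250 bases before the start, and for Trib3, where the core lies at positions 15 to 22 after the start, it is 30 bases around it.
Asns: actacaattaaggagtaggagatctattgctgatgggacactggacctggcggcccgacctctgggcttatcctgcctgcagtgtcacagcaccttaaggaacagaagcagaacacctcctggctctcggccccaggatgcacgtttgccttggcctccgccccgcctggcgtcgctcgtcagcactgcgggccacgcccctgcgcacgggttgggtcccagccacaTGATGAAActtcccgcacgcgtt
Trib3: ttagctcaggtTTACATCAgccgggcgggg
Chac1: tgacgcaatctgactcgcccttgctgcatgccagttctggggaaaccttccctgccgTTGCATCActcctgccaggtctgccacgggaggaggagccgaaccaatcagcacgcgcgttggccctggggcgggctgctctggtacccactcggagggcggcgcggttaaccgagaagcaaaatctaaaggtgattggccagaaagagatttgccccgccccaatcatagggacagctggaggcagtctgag
Atf3: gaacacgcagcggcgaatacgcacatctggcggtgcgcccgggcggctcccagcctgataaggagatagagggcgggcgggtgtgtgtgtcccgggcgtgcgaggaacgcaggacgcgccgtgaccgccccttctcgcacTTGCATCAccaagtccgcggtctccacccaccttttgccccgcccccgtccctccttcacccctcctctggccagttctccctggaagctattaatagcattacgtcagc
The Asns stretch lies at chr6:7693210-7693459 on the minus strand and reads TGATGAAA on the gene's strand, at positions -23 to -16 from the start. The Trib3 stretch, at chr2:152344028-152344057 on the minus strand, reads TGATGTAA on the opposite strand. The Chac1 stretch, at chr2:119350992-119351241 on the plus strand, and the Atf3 stretch, at chr1:191183334-191183583 on the minus strand, both read TGATGCAA on the opposite strand, at positions -193 to -186 and -110 to -103. A match in these letters is a description of the sequence, and no binding was measured.

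Asns, Trib3, Phgdh and Psat1 had lower signal in the tumours of knockout hosts, by 2.27-fold, 2.79-fold, 1.99-fold and 1.7-fold at their brightest probes. For the factors that give the response its name, Atf4 differed by -0.14 and Ddit3 by 0.40 on the log2 scale (knockout minus wild type). Their 95% intervals (-0.47 to 0.20 and -0.60 to 1.40) overlapped those of Trib3, Phgdh and Psat1. Whether the factors differed from the other members was not tested. Asns was also lower, with the groups apart, at its other probe (-0.58). The other probes of Trib3 (-0.53 and -0.08) and Psat1 (-0.56) had overlapping groups, and Phgdh has a single probe. No member passed the threshold. limma called 0 of 18 member probes at an adjusted p under 0.05, against 0% of all 27979 probes. Fits without a wild-type array set a lone wild-type tumour against the knockout pair, so their adjusted calls are not read here. At an unadjusted p under 0.05, 4 of the 10 genes were lower and 0 higher, where 9.86% of 13233 named genes were lower and 10.4% higher. By brightest probes, both knockout arrays lay below both wild-type arrays for 7 of the 10 genes and above them for 0, against 27.7% and 23.4% of named genes. The 7 include Atf4 and Atf3, whose groups were barely apart (10.27 against 10.29, and 6.91 against 6.96). Over all 18 member probes 8 lay below and 1 above, against 7159 and 6616 of all 27979 probes. The median difference over the 10 genes was -0.54, beside -0.03 over all named genes, and over all 18 member probes it was -0.28. Without wild-type replicates 2 and 3 the median over the 10 genes was -0.82 and -0.32. The count of 4 depended on the scaling and on single arrays. It was 0 under median scaling, 1 under 75th percentile scaling, 1 and 2 without knockout replicates 1 and 2, and 6 and 3 without wild-type replicates 2 and 3.

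**Figure D1:**
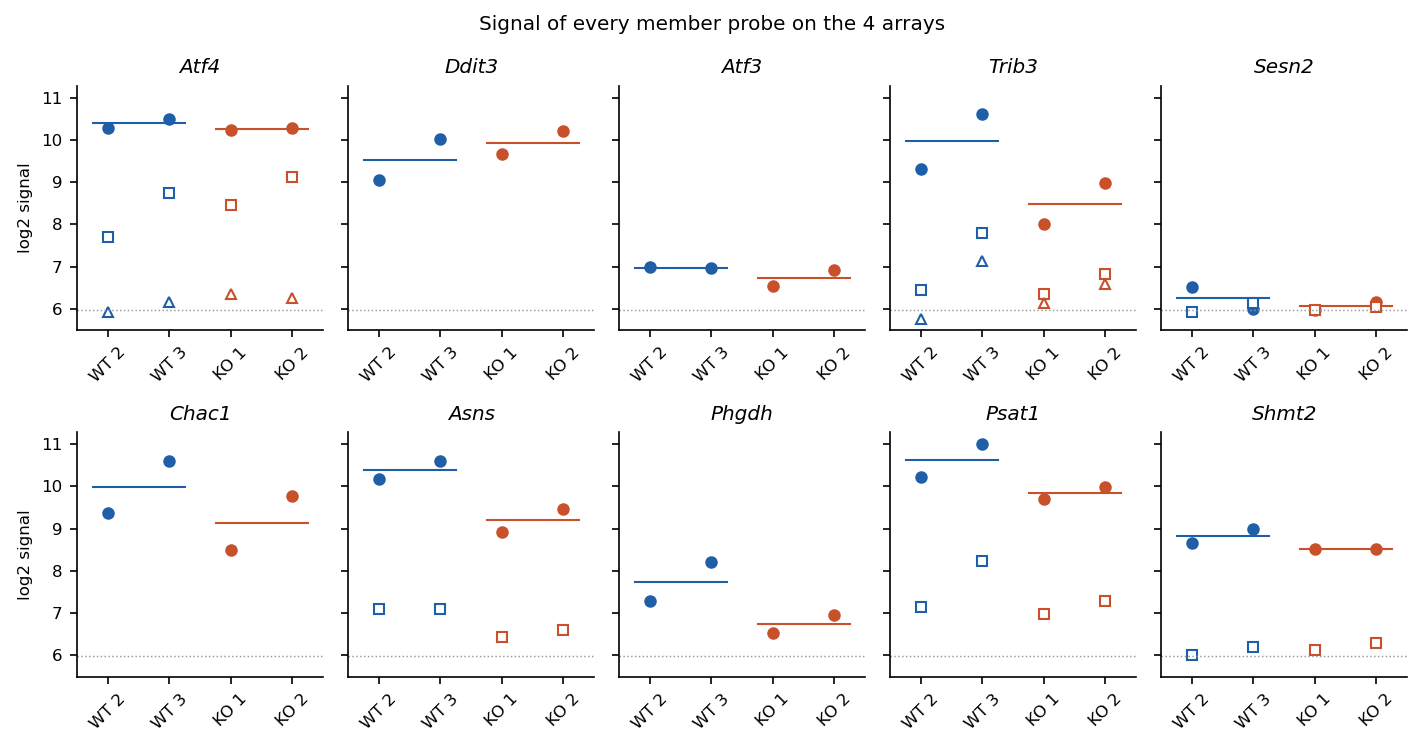
Log2 signal (vertical axis) of every member probe on the 4 arrays, wild type (WT) in blue and knockout (KO) in orange. Filled circles are the brightest probe of a gene with lines at its group means, open squares and triangles are the other probes in order of brightness, and the dotted line is the median of all probes, 5.98. For Asns, Trib3, Phgdh and Psat1 both knockout points of the brightest probe lie below both wild-type points, while for Ddit3 the groups overlap.

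Atf4 has 3 probes, and they did not move together. Its brightest (ILMN_2642681) read 10.29 in wild-type replicate 2 and 10.49 in replicate 3 (log2 signal), and 10.24 in knockout replicate 1 and 10.27 in replicate 2. Values below keep this order of arrays. The knockout values lay just under the lower wild-type value, with a difference of -0.14 ± 0.13 (SE, n = 2 each; limma adjusted p = 0.655), which became 0.06 under median scaling. At the second probe the signal was 7.69 and 8.75 in wild type and 8.46 and 9.12 in knockout. Here the groups overlapped, and the wild-type arrays differed from each other by more (1.07) than the groups did (0.57 ± 0.42). That difference was 0.04 without wild-type replicate 2 and 1.11 without replicate 3. The dimmest probe, near the median of all probes, had 5.93 and 6.16 against 6.35 and 6.25, a difference of 0.25 ± 0.14. The annotation ties the first and second probes to the same transcript accession, so the file does not say which parts of the messenger each reads.

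Ddit3 encodes CHOP, a C/EBP family factor that promotes cell death when stress persists. Its probe (ILMN_2652909) had 9.04 and 10.02 in wild type and 9.66 and 10.20 in knockout. The lowest and the second highest values were both wild type, so the groups overlapped. The difference was 0.40 ± 0.38, with a 95% interval from -0.60 to 1.40 and a limma adjusted p of 0.665. It was 0.89 without wild-type replicate 3 and -0.09 without replicate 2. Atf3 encodes a factor of the same leucine zipper class that can repress stress genes. Its probe (ILMN_2619408) had 6.99 and 6.96 in wild type and 6.55 and 6.91 in knockout, so knockout replicate 2 lay close to wild type and replicate 1 below it. The difference of -0.25 ± 0.16 had a limma adjusted p of 0.524 and became 0.01 under median scaling.

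Trib3 encodes a pseudokinase that binds ATF4 and CHOP and dampens their activity. Its brightest probe (ILMN_1225528) had 9.32 and 10.62 in wild type and 8.01 and 8.97 in knockout. Both knockout tumours were lower than both wild-type tumours, although the tumours of a genotype were far apart, by 1.3 in wild type and 0.95 in knockout. The difference was -1.48 ± 0.54, which is 2.79-fold, with a 95% interval from -2.88 to -0.08, an unadjusted p of 0.0425 and an adjusted p of 0.285 by limma. The size depended on which wild-type array was used: the difference was -0.83 without replicate 3, and -2.13 without replicate 2. The dimmer Trib3 probes differed less on the log2 scale. The values had no background subtraction, so sizes at dim and bright probes are not directly comparable. The second Trib3 probe had 6.45 and 7.79 against 6.36 and 6.82, a difference of -0.53 ± 0.47. The dimmest had 5.76 and 7.13 against 6.14 and 6.58, a difference of -0.08 ± 0.48 that became 0.01 under median scaling. At both, wild-type replicate 3 was highest and the groups overlapped.

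Sesn2 encodes sestrin 2, which restrains mTORC1 when leucine is low. Its brighter probe (ILMN_1229465) had 6.51 and 6.01 in wild type and 5.97 and 6.17 in knockout, and the other probe 5.94 and 6.15 against 5.98 and 6.05. These values lie near 5.98, the median of all probes. The differences of -0.19 ± 0.21 and -0.03 ± 0.13 were within the spread between replicates.

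Chac1 encodes an enzyme that breaks down glutathione and is raised late in the response. Its probe (ILMN_2617468) had 9.37 and 10.61 in wild type and 8.50 and 9.76 in knockout. The groups overlapped, since knockout replicate 2 lay above wild-type replicate 2. The spread within a genotype was 1.24 and 1.26, wider than the group difference of -0.85 ± 0.59 (limma adjusted p = 0.548). The difference was -0.22 without knockout replicate 1 and -0.23 without wild-type replicate 3, and -1.49 and -1.47 without the other array of each genotype.

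Asns encodes asparagine synthetase, which makes asparagine from aspartate and glutamine. Its brightest probe (ILMN_2643513) had 10.17 and 10.59 in wild type and 8.93 and 9.47 in knockout. The gap between the groups was wider than the spread within either, at 0.42 and 0.54. The difference was -1.18 ± 0.25 (2.27-fold, 95% interval -1.83 to -0.53), with an unadjusted p of 0.00585 and an adjusted p of 0.144 by limma. The second Asns probe had 7.10 and 7.11 in wild type and 6.44 and 6.61 in knockout, again with both knockout values lower. Its difference was -0.58 ± 0.12 (adjusted p = 0.147 by limma). Asns was the only member measured by more than 1 probe for which every probe separated the groups in the same direction. Over the 10 alternatives the difference at the brightest probe ran from -1.45 to -0.91.

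**Figure D2:**
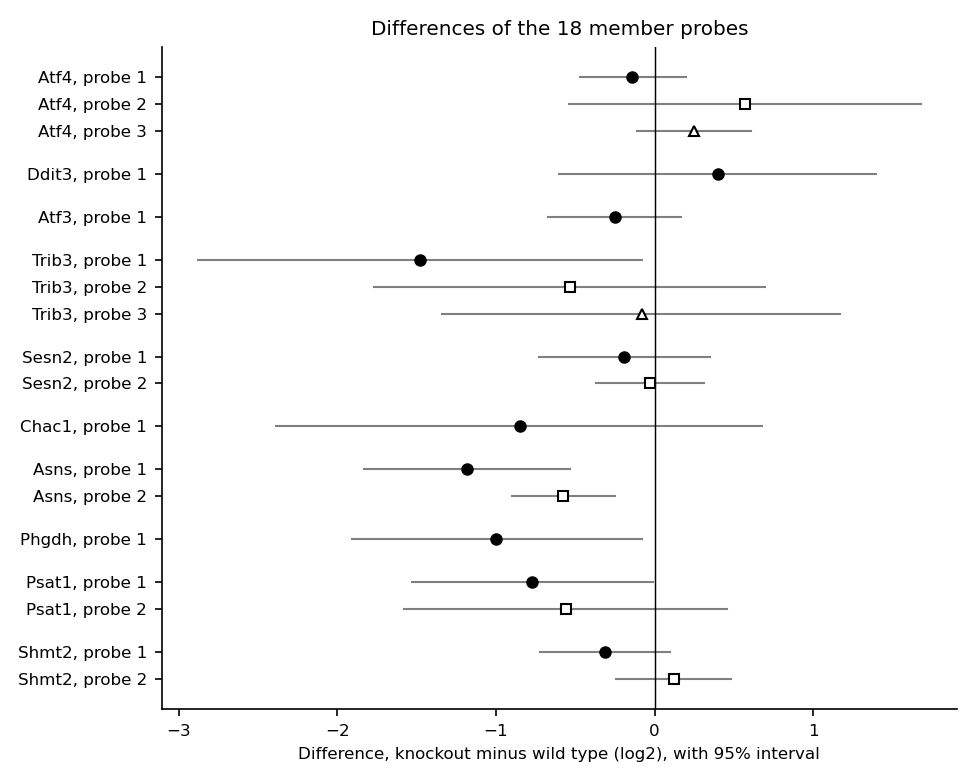
Difference between knockout and wild type (log2, horizontal axis) for each of the 18 member probes with its 95% interval from limma, numbered by brightness within a gene. The intervals of both Asns probes have the lowest upper ends, at -1.83 to -0.53 and -0.90 to -0.25, and those of the brightest Trib3, Phgdh and Psat1 probes reach nearly to 0.

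Phgdh, Psat1 and Shmt2 encode enzymes that make serine from a glycolytic intermediate and convert it to glycine in mitochondria. Phgdh catalyses the entry step, and its probe (ILMN_2772691) had 7.28 and 8.21 in wild type and 6.54 and 6.95 in knockout. Both knockout values were lower, and wild-type replicate 3 stood highest. The difference was -1.0 ± 0.35 (1.99-fold), with an unadjusted p of 0.0381 and an adjusted p of 0.273 by limma. It was -0.53 without wild-type replicate 3, and -1.46 without replicate 2.

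Psat1, the aminotransferase of the next step, had 10.23 and 11.01 in wild type and 9.71 and 9.98 in knockout at its brightest probe (ILMN_1221048). The groups did not overlap, although the wild-type tumours differed by 0.78, as much as the groups did (-0.77 ± 0.29, unadjusted p = 0.0488 and adjusted p = 0.303 by limma). The difference was -0.38 without wild-type replicate 3 and -1.16 without replicate 2. The second Psat1 probe had 7.14 and 8.24 against 6.97 and 7.28, and its difference of -0.56 ± 0.39 was -0.01 without wild-type replicate 3. Shmt2, the mitochondrial hydroxymethyltransferase, had 8.65 and 8.99 in wild type and 8.51 on both knockout arrays at its brightest probe (ILMN_1224942). The difference of -0.31 ± 0.16 (limma adjusted p = 0.418) became 0.02 under median scaling. Its second probe, near the median of all probes, had 6.0 and 6.20 against 6.14 and 6.30 and differed by 0.12 ± 0.14.

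The members also differed between tumours of the same genotype. By their brightest probes, 8 of the 10 genes were higher in wild-type replicate 3 than in replicate 2 (53.7% of all named genes) and 9 were higher in knockout replicate 2 than in replicate 1 (51.8%). The median difference between the wild-type tumours was 0.60 over the members, beside 0.03 over all named genes, and between the knockout tumours 0.38 beside 0.01. Over all kept probes the standard deviation of the log2 difference was 0.416 between the wild-type tumours and 0.258 between the knockout tumours. Between arrays of different genotype it was 0.41 to 0.495. Chac1 and Trib3 were widest apart in both genotypes. Ddit3, Phgdh and Psat1 were apart by 0.98, 0.93 and 0.78 in wild type and by 0.54, 0.41 and 0.27 in knockout. The brightest Atf4 probe was apart by 0.19 and 0.03, and its second probe by 1.07 and 0.66.

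**Figure D3:**
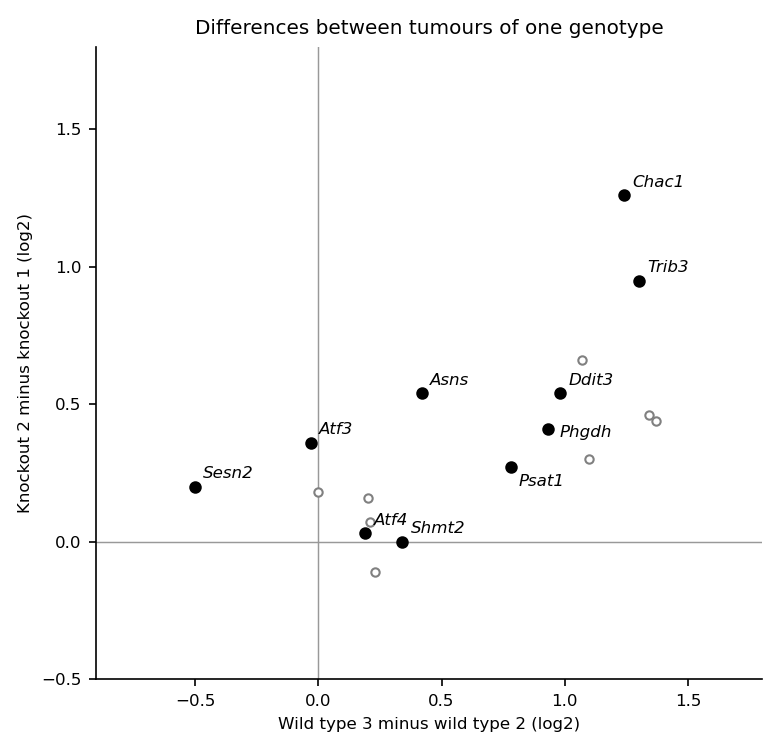
Log2 difference between the tumours of each genotype, wild-type replicate 3 minus replicate 2 on the horizontal axis and knockout replicate 2 minus replicate 1 on the vertical axis. Filled points are the brightest probe of each member and open points the other member probes. Chac1 (1.24 and 1.26) and Trib3 (1.3 and 0.95) lie at the upper right, and Sesn2 (-0.50 and 0.20) is farthest to the left.

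Values of the surrounding tissue differed along with these genes. The injected line was plain in all tumours: 8 of 8 melanocyte markers were kept, with a summed signal of 109825 and 104915 in wild type and 127217 and 117597 in knockout. Markers of keratinocytes (10 of 10 kept) summed to 6949 and 5907 in wild type, and to 18341 in knockout replicate 1 and 7597 in replicate 2. Skeletal muscle markers (9 of 10) summed to 3858 and 3246 against 8459 and 4673, and fibroblast markers (6 of 6) to 3987 and 2667 against 7268 and 3132. By these sums, which follow their brightest genes, knockout replicate 1 carried the most skin, muscle and fibroblast signal. The skin and muscle sums of knockout replicate 2 also exceeded those of both wild-type arrays. Single markers went both ways. Both knockout arrays lay above both wild-type arrays for 6 of 10 keratinocyte and 6 of 9 muscle markers (23.4% of all named genes). They lay below for 1 of each (27.7%). In knockout replicate 2, Dsg3, Trp63 and Sfn were lower than in either wild-type array. At their brightest probes Asns, Trib3, Chac1, Phgdh and Psat1 were lowest in knockout replicate 1. The dimmest Trib3 probe was lowest in wild-type replicate 2 (5.76, against 6.14 in knockout replicate 1). Without knockout replicate 1 Asns differed by -0.91, Trib3 by -1.0, Phgdh by -0.79, Psat1 by -0.63 and Chac1 by -0.22. The part of skin and muscle in these values was not tested. Red cell markers (5 of 7 kept) summed to 70980 and 65384 in wild type against 34980 and 19957. Granulocyte markers (5 of 9; Ly6g, Ngp, Ltf and Mmp8 not kept) summed to 2089 and 3284 against 447 and 611, and S100a8 differed by -3.34 ± 0.34. Macrophage markers (6 of 8, with no named probe for Cd68 and Csf1r) summed to 2495 and 2689 against 2760 and 2857. The sum hides both directions: 3 of the 6 had a higher and 3 a lower mean in the knockout. Cd14 differed by -0.87 ± 0.16 and C1qa by -0.45 ± 0.17. The part of these cells in the members' values was not tested. Aoc3 had 7.96 and 7.09 in wild type and 7.21 and 7.07 in knockout (-0.39 ± 0.31), so its signal does not separate the genotypes, and group names follow the labels. Before normalization, both knockout arrays were brighter than both wild-type arrays. Knockout replicates 1 and 2 had medians of 64.81 and 68.27, against 63.33 and 55.3 for wild-type replicates 2 and 3. Their 75th percentiles were 112.79 and 126.65, against 96.95 and 88.24. Whether this brightness bears on the members' differences was not tested.

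Upstream of ATF4, 18 of 19 listed genes for eIF2, its kinases and phosphatases and its exchange factor eIF2B were kept, and 0 passed the threshold. At an unadjusted p under 0.05, 3 of the 18 were higher and 5 lower, where 10.4% of all named genes were higher and 9.86% lower, and the median was 0.02. Eif2b3, a subunit of eIF2B, had 9.88 and 9.97 in wild type and 9.0 and 9.20 in knockout (-0.82 ± 0.13), and Eif2s2, the beta subunit of eIF2, 10.04 and 10.44 against 9.18 and 9.54 (-0.88 ± 0.21). The second Eif2s2 probe differed by -0.23 ± 0.52. Eif2ak2, the kinase PKR that responds to double-stranded RNA, had 9.43 and 9.36 against 10.15 and 9.92 (0.64 ± 0.14). Gcn1, a partner of the amino acid sensing kinase GCN2, was near the dim end, at 6.13 and 6.42 against 6.89 and 6.91 (0.63 ± 0.14), and its 3 other probes differed by 0.04 to 0.27. The kinases PERK and GCN2 themselves, Eif2ak3 and Eif2ak4, lay near the median of all probes and differed by 0.07 each. Ppp1r15a, an ATF4 pathway target that restores eIF2, had 7.79 and 7.99 against 7.91 and 7.92 (0.03 ± 0.13). These 3 genes were named for their place in the pathway, after their values were seen.

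Of 24 other targets and partners of ATF4 and CHOP, 21 were kept and 0 passed the threshold. Among them 15 had a lower and 6 a higher mean in the knockout, where 54.1% of all named genes had a lower mean, and the median was -0.30. At an unadjusted p under 0.05, 2 of the 21 were lower and 1 higher, no larger a share than over all named genes (9.86% lower and 10.4% higher). The median was -0.07 under median scaling and -0.13 without knockout replicate 1. Rit1, a small GTPase gene, had 9.81 and 10.19 in wild type and 9.18 and 9.16 in knockout (-0.83 ± 0.17, and -0.58 ± 0.19 at its second probe). The autophagy genes Sqstm1 and Map1lc3b differed by -0.50 ± 0.13 and -0.58 ± 0.23, and Sqstm1 had 12.16 and 12.11 against 11.73 and 11.55. Vegfa, the vessel growth factor gene, was higher, at 9.93 and 9.94 against 10.37 and 10.80 (0.65 ± 0.18). Each of these had a limma adjusted p between 0.14 and 0.324. Fgf21, an ATF4-responsive hormone gene named after its values were seen, had 6.36 and 8.15 against 6.02 and 5.68, so its difference of -1.40 ± 0.60 rested on wild-type replicate 3.

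**Figure D4:**
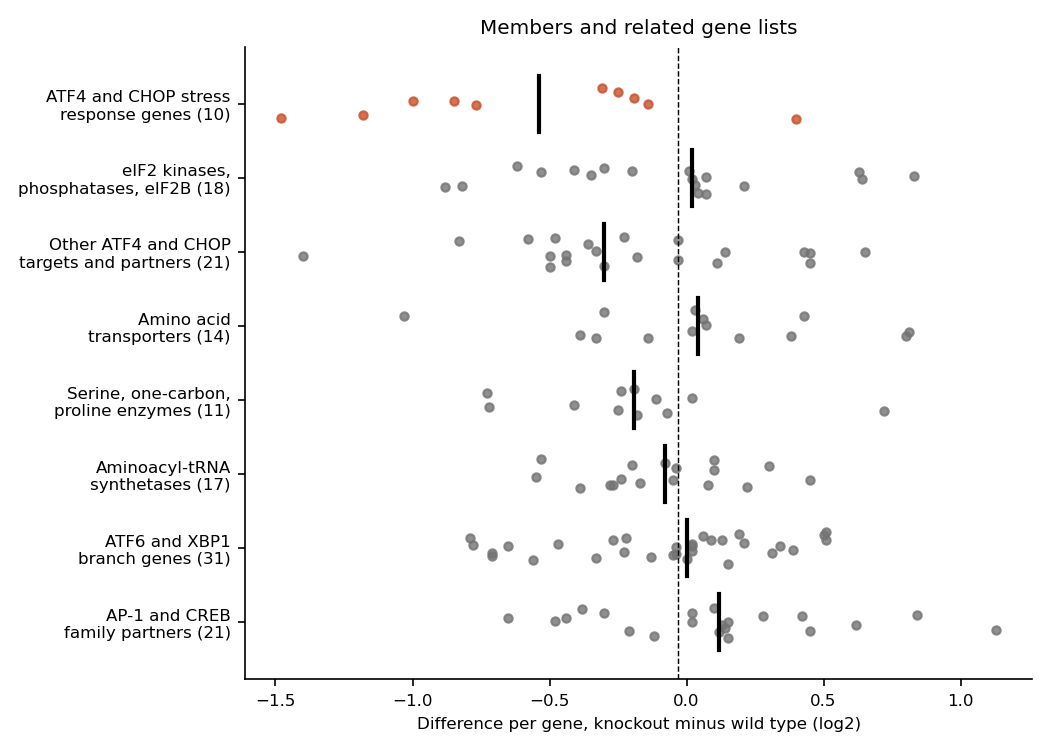
Difference between knockout and wild type (log2, horizontal axis) for each gene by its brightest probe, for the 10 members (orange) and 7 related lists (grey), with the number of genes in brackets. Thick bars are list medians and the dashed line is the median of all named genes, -0.03. The members' median lies at -0.54, and those of the related lists between -0.30 and 0.12.

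Of 15 listed amino acid transporter genes, 14 were kept, 9 with a higher and 5 with a lower mean in the knockout and a median of 0.04. None passed the threshold, and at an unadjusted p under 0.05, 2 of the 14 were higher and 0 lower (10.4% and 9.86% of all named genes). Slc38a2, a carrier of neutral amino acids that ATF4 is known to raise, was higher at 9.76 and 9.14 against 10.04 and 10.45 (0.80 ± 0.27, and 0.11 ± 0.12 at its second probe). The taurine carrier gene Slc6a6 was higher by 0.81 ± 0.30 at its brightest probe and differed by -0.42 ± 0.18 at the other. Slc1a4, a carrier of serine and alanine, had 8.85 and 9.62 against 7.62 and 8.79 (-1.03 ± 0.47), and Slc7a6 differed by -0.39 ± 0.15 and, at its second probe, by -0.13 ± 0.11. Of 24 listed enzymes of serine, folate, proline and sulfur amino acid metabolism other than the members, 15 had a named probe and 11 were kept. Of these 9 had a lower and 2 a higher mean (54.1% of all named genes had a lower mean). At an unadjusted p under 0.05, 2 were lower and 1 higher. The median was -0.19, and it was -0.35 without wild-type replicate 2 and -0.06 with arrays scaled by their medians. Ahcy, which hydrolyses S-adenosylhomocysteine, had 10.22 and 10.44 in wild type and 9.65 and 9.57 in knockout (-0.72 ± 0.13). Gpt2, a mitochondrial alanine aminotransferase gene, had 7.54 and 8.12 against 6.96 and 7.25 (-0.73 ± 0.24). Mthfd1, a cytosolic folate enzyme gene, was higher at 6.61 and 6.98 against 7.50 and 7.55 (0.72 ± 0.16), and its mitochondrial relative Mthfd1l differed by -0.24 ± 0.12. None of these passed the threshold.

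Aminoacyl-tRNA synthetase genes, several of which ATF4 raises, had 17 of 20 kept. Of these 11 had a lower and 6 a higher mean, with a median of -0.08, beside a lower mean in 54.1% of all named genes. At an unadjusted p under 0.05, 1 of the 17 was lower and 0 higher, a smaller share than over all named genes (9.86% and 10.4%). Nars had 10.58 and 11.08 against 10.16 and 10.40 (-0.55 ± 0.21) and Sars 10.10 and 10.68 against 9.75 and 9.98 (-0.53 ± 0.23). Eprs (-0.39 ± 0.21) and Gars (-0.27 ± 0.15) differed by less, and the second probes of Sars and Gars differed by -0.18 ± 0.28 and 0.11 ± 0.13. Genes of the ATF6 and XBP1 branches, which raise chaperones and quality control of the endoplasmic reticulum, had 31 of 34 kept, with a median of 0.00. At an unadjusted p under 0.05, 3 of the 31 were higher and 6 lower, beside 10.4% and 9.86% of all named genes, and 0 passed the threshold. The lectin chaperone gene Canx had 9.38 and 9.44 against 8.64 and 8.60 (-0.79 ± 0.11, and -0.14 ± 0.11 at its second probe). Sel1l, an adaptor of ER-associated degradation, differed by -0.78 ± 0.16 at its brightest probe and by -0.09 ± 0.11 at the other. Creld2 (0.51 ± 0.12) and Atf6b (0.51 ± 0.14) were higher. Of the 28 genes named by rule from the related lists, 12 passed the adjusted threshold without wild-type replicate 2, where 7.77% of all probes did, and 3 without wild-type replicate 3 (4.46%). These 28 were taken for groups apart and a small p in the same arrays, so nothing is read from those counts.

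Profiles close to those of the named factors were sought among 13223 other named genes. For the brightest Atf4 probe, which hardly varied over the 4 arrays, the nearest were Olfr1217, Sbk3, 4430402I18Rik, Bag1 and Rnf185, at distances of 0.0233 to 0.0291 where the median over all genes was 0.371. Olfr1217 (5.84 to 6.11) and Sbk3 (5.86 to 6.09) lay near the median of all probes, 5.98, so their signal may be no more than background. For Ddit3 the nearest were Praf2, Car6, Anp32b, Foxred1 and Srsf11, at 0.110 to 0.207 with a median of 0.957. Among the members by their brightest probes, Shmt2 lay nearest to Atf4 (0.202) and Trib3 farthest from both factors (1.68 from Atf4 and 1.91 from Ddit3). The distance between Atf4 and Ddit3 depended on the Atf4 probe. It was 0.855 for the brightest, 0.201 for the second, which is within the range of the genes nearest to Ddit3, and 0.718 for the dimmest. These distances describe 4 arrays.

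**Figure D5:**
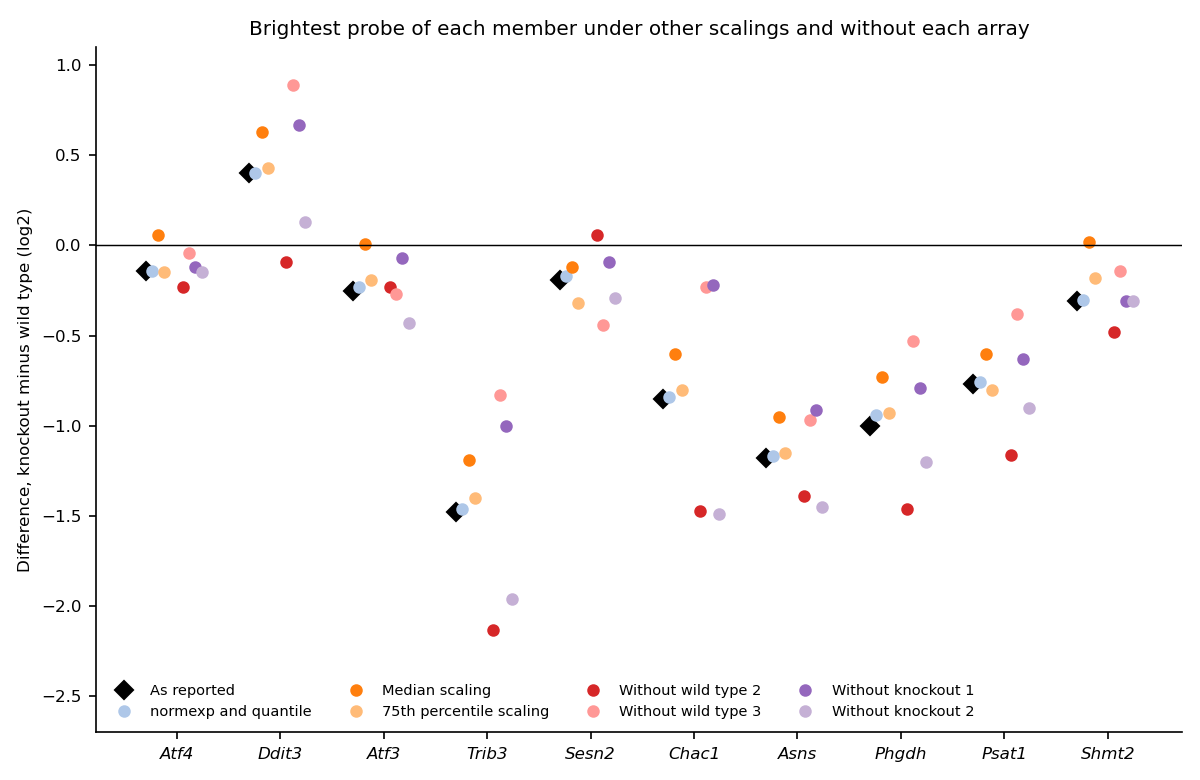
Difference between knockout and wild type (log2, vertical axis) at the brightest probe of each member as reported (black diamonds), with other scalings, and without each array in turn (coloured circles). Asns stays between -1.45 and -0.91, Trib3 ranges from -2.13 to -0.83, and Ddit3 ranges from -0.09 to 0.89.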

How the data were processed

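The analysis used 4 Illumina bead arrays, 1 per tumour. The authors deposited 2 tables of linear probe intensity without detection p-values. The first is unnormalized. The other, their processed table, holds in each column the means over ranks of the sorted unnormalized columns, that is quantile normalization with no background subtraction. The sources used here do not say how beads were read and summarised. Unnormalized rows carry numbers that name no gene, so they were paired with the processed rows through their 4 values (all 46632 processed rows matched within 0.001 on the log2 scale; 11 unnormalized rows were left without a partner).

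The values reported are log2 of the authors' processed intensity. Probes with a mean above the 40th percentile (5.88) were kept, which left 27979 probes. limma 3.58.1 in R 4.3.3 (lmFit, eBayes, two-sided) gave the difference, its standard error (SE) and the Benjamini-Hochberg adjusted p over these probes, with 2 residual and 2.71 prior degrees of freedom and a threshold of 0.05. With 2 against 2, the smallest p of an exact permutation test is 0.333, so none was run. The number of arrays limits the precision, and no slide or scan date was given to test as a batch. Of the probes in the table, 29976 had 1 gene symbol, 10 had several and 16646 had none. RefSeq held the gene identifiers of 29921 probes, which changed 0 symbols. Where a gene has several probes, counts use its brightest by the mean over the 4 arrays.

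In 10 simulations of 27979 probes with 200 changed, the steps recovered 1.5% of 2-fold and 74.2% of 4-fold changes at the adjusted threshold, with a mean of 3.3 false calls. At an unadjusted p under 0.05 95% of the 2-fold changes and 5.06% of the unchanged probes passed. The simulated probes were independent, with noise drawn from the prior that limma fitted. In the data 2595 of 27979 probes were higher and 1973 lower at an unadjusted p under 0.05 by limma. The simulated rates therefore hold for that setting and need not hold for these arrays. Alternatives were a normexp background correction with an offset of 50 followed by quantile normalization, scaling by each array's median or 75th percentile, no filter or a filter at the 70th percentile, an intensity trend with a robust prior, the mean over all probes of a gene, and leaving out each array. The members, the related gene lists and the marker lists were chosen with earlier results of these data known. Every probe of the 10 members is reported. From each list, the genes named are those with groups apart and the smallest unadjusted p, at most 4, with at most 2 from a marker list. The brightest probes of Atf4 and Ddit3 were each set against 13223 other genes by the Euclidean distance between log2 profiles centred on their own mean. Promoter windows came from RefSeq (GRCm38.p6). Figures and tables used Python 3.11.15, numpy 2.4.6, pandas 2.3.3, scipy 1.17.1 and matplotlib 3.10.9.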

Additional observations from a re-analysis of the deposited data

How the results depend on the processing

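Over all probes 0 passed the adjusted threshold in limma (2595 were higher and 1973 lower at an unadjusted p under 0.05), and 4 did with an intensity trend and robust prior. Leaving out an array gave 0 to 2175 calls over all probes and 0 to 6 over the member probes, the highest counts without wild-type replicate 2, where the spread then comes from the knockout pair alone and the lone wild-type array is assumed to vary like it. Without wild-type replicate 3 there were 1248 calls, 0 of them member probes. The 4 member genes lower at an unadjusted p under 0.05 became 0 under median scaling and 1 under 75th percentile scaling, and 1 to 6 without single arrays; the 0 higher became 0 to 1. The median over the members kept its sign under all alternatives, from -0.82 to -0.27. Of 175 values of single member probes under alternatives, 12 changed sign. Under median scaling these were Atf4 (0.06), Atf3 (0.01), Shmt2 (0.02) and the dimmest Trib3 probe (0.01), and under 75th percentile scaling the second Shmt2 probe (-0.03). Leaving out arrays gave -0.09 to 0.89 for Ddit3, -1.20 to 0.13 and -0.77 to 0.60 for the second and the dimmest Trib3 probes, and -0.44 to 0.06 and -0.13 to 0.08 for the Sesn2 probes. The cause was not tested. Median scaling put the median of all probes at 0.06 and 75th percentile scaling at -0.14, against -0.02 as reported. The tables hold no detection p-values, so signal over background is not given; the Sesn2 probes, the second Shmt2 probe and the dimmest Atf4 probe are the dimmest of the members, at the 54.2 to 61.3 percentile of all probes. No paired analysis was run, because the labels match no wild-type tumour with a knockout tumour.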

Other observations

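Partners with which ATF4, ATF3 and CHOP can form dimers, the AP-1 and CREB family genes, had 21 of 23 kept, with a median of 0.12 that was -0.03 without wild-type replicate 2, and 0 passed the threshold. Atf7, a CREB-like factor gene, was higher in the knockout, at 7.89 and 7.58 against 9.20 and 8.54 (1.13 ± 0.26 SE), and the limma adjusted p was 0.158. Crem, Maff and Jun differed by -0.65 ± 0.19, -0.48 ± 0.18 and -0.44 ± 0.17, and the 3 other Crem probes differed by -0.23 to 0.01. Cebpb, the C/EBP partner of ATF4, named after its values were seen, had 10.40 and 9.40 against 10.64 and 10.06 (0.45 ± 0.39). Its groups overlapped, and wild-type replicate 3, where Asns and Trib3 were highest, had the lowest Cebpb signal of the 4 arrays.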
